A study of Mus musculus with 4 samples.

Results

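The genes examined were 39 components of the TGF-beta and BMP signalling pathways in mouse embryonic fibroblasts (MEFs), cells grown out of mouse embryos. They were chosen by name, with earlier results of these data known. All probe sets of the Affymetrix MOE430A array that the platform annotation pairs with exactly 1 of these symbols were taken. They were 67 of the 22626 probe sets that are not controls, and they read 38 of the 39 genes, of 12393 genes with such a probe set on the array. Smurf2, a ubiquitin ligase of Smads, had no such probe set. The mTert group was 2 samples of MEFs that received the retroviral vector pBabePuro carrying mTert, the catalytic subunit of mouse telomerase. The control group was 2 samples of MEFs that received the same vector empty, so both groups went through infection with a vector that carries puromycin resistance. The labels give no strain, embryonic age, passage or number of embryos. They do not say whether samples of a group came from separate cultures, so any p-value here speaks of these 4 samples' own scatter, part of which may be technical.

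TGF-beta and BMP ligands are secreted dimers that bring type II and type I receptor kinases together at the cell surface. The type I receptor then phosphorylates Smad2 and Smad3 (TGF-beta and activin) or Smad1 and Smad5 (BMP), which join Smad4 and enter the nucleus. TGF-beta is secreted in a latent form tethered to the matrix by latent TGF-beta binding proteins. Gremlin and follistatin trap ligands outside the cell, while inhibitory Smads, Ski, Skil and Tgif1 limit the response inside it. In fibroblasts the pathway is known for driving matrix production and the contractile state.

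The arrays differed in features beside the vector. Control 1 carried 5 µg of labelled cRNA and each other array 15 µg, and 51.6% to 54.4% of probe sets were called present per array. Tert itself read 1165 and 845 in mTert 1 and mTert 2, against 128 and 84.7 in control 1 and control 2. Its signal was 9.53-fold higher in mTert, a log2 difference of 3.25 with a limma interval from 2.61 to 3.9 (limma adjusted p = 0.188). Tert was called absent in control 1 and control 2, so this fold compares signals and is not a lower bound. All 13 fibroblast markers examined were present, with summed signals of 96740 and 93046 in mTert and 100880 and 97029 in control. Macrophage markers, 13 of 15 of them present on at least 2 arrays, summed to 17082 in mTert 2 and 16348 in control 2, but 4164 in mTert 1 and 3647 in control 1. Most endothelial (6 of 8), epithelial (6 of 8), muscle (5 of 8) and neural (4 of 5) markers with a probe set were absent on all 4 arrays, among them Pecam1, Epcam, Myod1 and Sox10. In such bulk RNA, fewer cells of a type and less RNA per cell cannot be told apart.

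Signals are in scaled arbitrary units. Differences are mean log2 signals of mTert minus those of control, and those of the genes described most fully carry limma's standard error (SE). Of the 39 genes, 34 had a probe set that passed the filter (present on at least 2 of the 4 arrays, whatever their group). Each was described by its brightest such probe set. The median difference was -0.025, against 0.008 over all 7387 genes tested, and the single differences ran between -0.32 for Tgif1 and 0.37 for Grem1. By limma 0 of the 34 passed an adjusted p of 0.05, where 0.0% of all probe sets did. The adjusted p of each of the 34 was 1.00. Tert, the introduced gene, did not pass either (limma adjusted p = 0.188), so a count of 0 does not show that the members were unchanged. An unadjusted p under 0.05 was given to 2 of the 34, against 2.21% of all genes and 2.11% of all probe sets. Those 2 were Grem1, a secreted BMP antagonist, on the higher side and Tgif1, a nuclear corepressor of Smads, on the lower side. Both mTert signals lay above both control signals for 5 genes (13.8% of all genes did so) and below for 5 (11.7% of all genes). These were Bmp4, Ltbp2, Bmp1, Grem1 and Tgfbi above, and Tgfbr2, Acvr1, Skil, Tgif1 and Fstl1 below. Together they are 29.4% of the 34, near the 25.4% of all genes. The 95% limma interval of the difference, not adjusted for multiple tests, lay within a 2-fold change in either direction for all 34 genes and within a 1.5-fold change for 26. Of all 7387 genes, 6831 and 4804 lay within these bounds. Of the 56 tested probe sets of the members, 55 and 35 did.

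**Figure D1:**
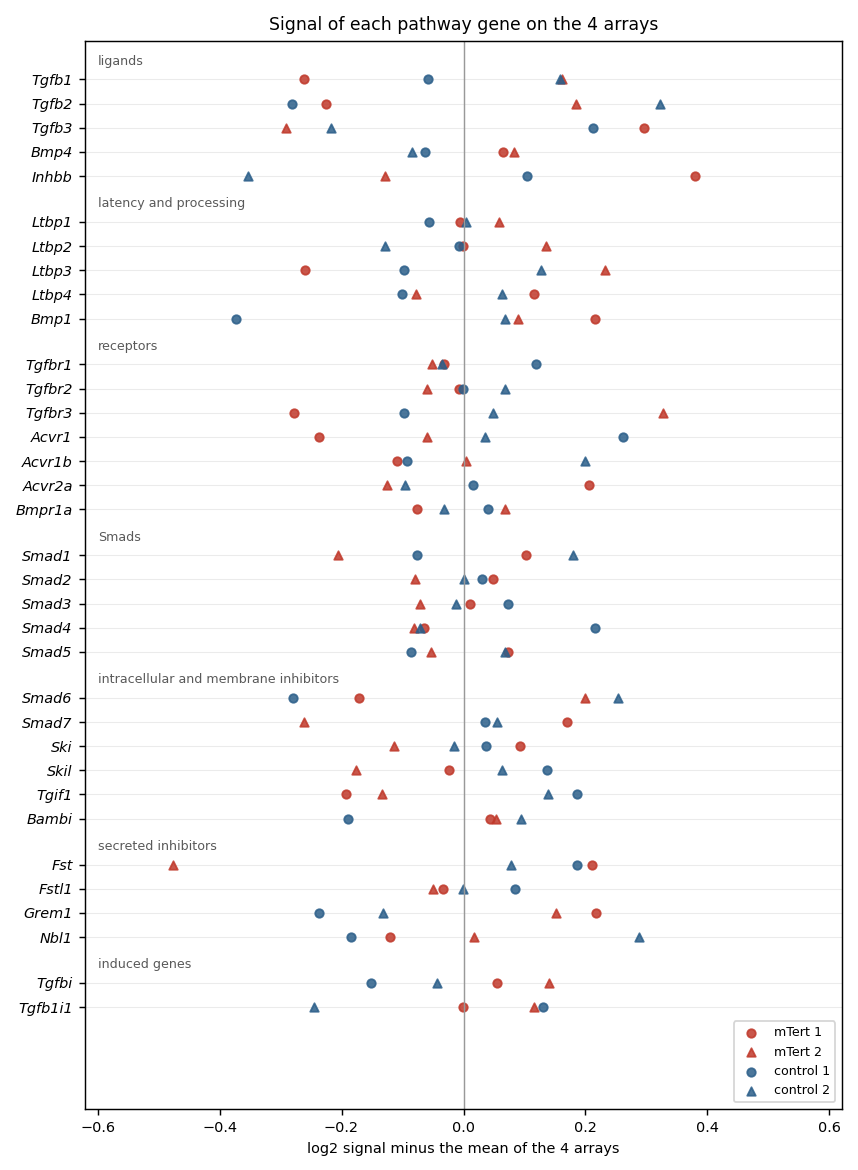
Log2 signal of the 34 pathway genes with a tested probe set on each array, minus the mean of the 4 arrays, by role in the pathway. Red marks are mTert, blue marks control, circles arrays numbered 1 and triangles arrays numbered 2. The red and blue marks separate for 10 genes such as Grem1 and Tgif1, while for Tgfb2, Tgfb3 and Smad6 circles and triangles separate.

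The promoters of 4 genes are shown as 4 of the 10 genes whose groups did not overlap: a secreted antagonist, a nuclear corepressor, a target of TGF-beta and a receptor. The 250 bases before the RefSeq gene start are given 5′ to 3′ on the gene's strand, from build GRCm38.p6. Capitals mark matches, on either strand, to CAGAC (the box bound by Smad3 and Smad4), GGCGCC (a GC-rich element bound by BMP Smads) and TGTCA (the motif for which TG-interacting factor was named). No matches overlapped in these 4 sequences. Grem1 lies at chr2:113758649-113758898 (minus strand), Tgif1 at chr17:70853533-70853782 (minus strand), Tgfbi at chr13:56609336-56609585 (plus strand) and Acvr1 at chr2:58566829-58567078 (minus strand).
Grem1: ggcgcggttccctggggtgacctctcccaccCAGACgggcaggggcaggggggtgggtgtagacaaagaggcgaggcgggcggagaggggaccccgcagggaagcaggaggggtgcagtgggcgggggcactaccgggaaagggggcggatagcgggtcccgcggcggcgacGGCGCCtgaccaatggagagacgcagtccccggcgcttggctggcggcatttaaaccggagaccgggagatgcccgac
Tgif1: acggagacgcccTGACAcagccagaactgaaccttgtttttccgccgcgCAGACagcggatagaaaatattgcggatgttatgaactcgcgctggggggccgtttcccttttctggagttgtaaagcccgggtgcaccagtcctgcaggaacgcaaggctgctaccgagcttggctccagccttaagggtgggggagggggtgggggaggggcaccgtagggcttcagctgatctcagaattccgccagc
Tgfbi: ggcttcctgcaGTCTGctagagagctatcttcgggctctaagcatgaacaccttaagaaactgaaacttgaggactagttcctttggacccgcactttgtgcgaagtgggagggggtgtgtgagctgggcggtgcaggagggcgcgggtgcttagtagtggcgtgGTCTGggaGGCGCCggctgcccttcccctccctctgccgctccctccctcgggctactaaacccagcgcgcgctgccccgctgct
Acvr1: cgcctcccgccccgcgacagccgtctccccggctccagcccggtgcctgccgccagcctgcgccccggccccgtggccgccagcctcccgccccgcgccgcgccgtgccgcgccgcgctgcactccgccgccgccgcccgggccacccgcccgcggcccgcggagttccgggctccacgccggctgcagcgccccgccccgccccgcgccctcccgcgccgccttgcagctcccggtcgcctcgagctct
Grem1 held 1 CAGAC and 1 GGCGCC, Tgif1 held 1 CAGAC and 1 TGTCA, shown there as its reverse complement, and Tgfbi held 2 CAGAC and 1 GGCGCC. Acvr1 held 0 of the 3 motifs in this window. Of the 39 members, 29 had RefSeq promoters, 39 sequences in all, and Tgif1 had 5, of which the one at the annotated gene start is shown. CAGAC was found in 43.6% of the 39 sequences, against 42.2% of 32851 promoters of all genes. GGCGCC was found in 28.2%, against 9.59%, and TGTCA in 17.9%, against 40.0%. These are shares of sequences, so genes with several are counted several times. By gene, CAGAC was found for 14 of the 29 members, GGCGCC for 10 and TGTCA for 5. The members' promoters had a median GC content of 66.4%, against 52.4% for all, and the part of GC content in these shares was not tested.

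Among the ligands, Bmp4 stood above control in both mTert samples. Bmp4, a ligand of the BMP type I receptors that patterns mesoderm in the embryo, read 1373 and 1390 in mTert 1 and mTert 2, against 1257 and 1238 in control 1 and control 2. The difference of 0.15 (SE 0.11) is a 1.11-fold higher mean. The replicates of each group lay close together, with means of 1381 ± 11.6 in mTert and 1248 ± 13.4 in control (SD, n = 2 each). Inhbb, the beta B subunit of activin and inhibin, read 276 and 194 in mTert, against 228 and 166 in control. Its groups overlapped and its difference of 0.25 (SE 0.26) was as large as the error. Without mTert 1 it was -0.002, and without mTert 2 it was 0.51.

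For the 3 TGF-beta isoforms the groups overlapped. Tgfb1, the isoform best known for its part in fibrosis and immune control, read 594 and 796 in mTert, against 684 and 794 in control, a difference of -0.10 (SE 0.18) that became 0.007 without control 2 and 0.11 without mTert 1. Both arrays numbered 2, those with the higher macrophage sums, lay above both numbered 1, and the part of macrophage RNA in this was not tested. Tgfb2 read 1000 and 1328 in mTert, against 962 and 1461 in control, a difference of -0.04. It too was higher on the arrays numbered 2, in all 3 of its probe sets. Tgfb3 ran the other way, with 5870 and 3910 in mTert against 5540 and 4116 in control, and differed between the groups by 0.005. Inhba, the beta A subunit of activin, was called absent on all 4 arrays, with signals of 500 and 206 in mTert and 515 and 237 in control.

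Of the genes that tether or process ligands, 4 of 5 had a positive difference, as had 3875 of all 7387 genes tested. The groups separated for 2 of the 5, and for 25.4% of all genes. Bmp1, a secreted metalloprotease that trims procollagens and frees BMPs from chordin, read 1029 and 943 in mTert, against 684 and 929 in control. The difference of 0.31 (SE 0.18) rests on the low control 1, and it was 0.085 without that array. Its other tested probe set stood at 0.18, with groups that overlapped. Ltbp2, a microfibril protein of the latent TGF-beta binding family that does not itself bind latent TGF-beta, read 4091 and 4497 in mTert, against 4071 and 3745 in control, a difference of 0.14 (SE 0.10). The lower mTert signal and the higher control signal nearly met. Ltbp1, the family member that tethers latent TGF-beta to the matrix, read 1067 and 1116 in mTert, against 1030 and 1075 in control, and its groups overlapped with a difference of 0.05 (SE 0.12). Ltbp3 stood at -0.03 and Ltbp4 at 0.04.

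**Figure D2:**
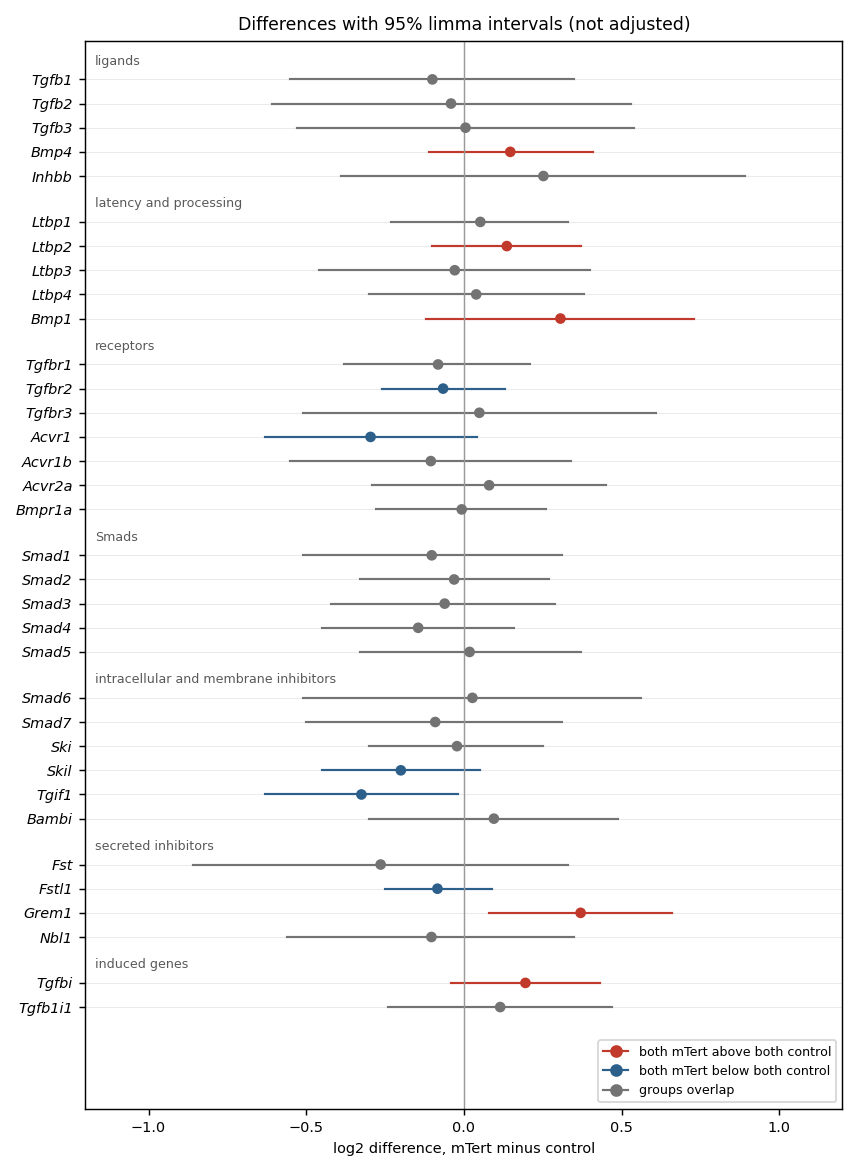
Log2 difference (mTert minus control) of the 34 genes with its 95% limma interval, not adjusted for multiple tests, by role. Red marks genes whose 2 mTert signals both lie above both control signals, blue those below, and grey those with overlapping groups. All intervals but those of Grem1 and Tgif1 cross 0, and all lie between -1 and 1.

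Of the 7 receptors tested, 5 had a negative difference, and the median was -0.066. Over all 7387 genes tested 3512 were negative, and the median was 0.008. Acvr1, a type I receptor that signals through the BMP Smads, read 930 and 1051 in mTert, against 1313 and 1122 in control. The groups did not overlap, and the difference was -0.30 (SE 0.14), or 1.23-fold higher in control. Its other 2 tested probe sets stood at -0.23, with groups apart, and at -0.01, with groups that overlapped. The difference was -0.18 without control 1.

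Tgfbr2, the type II receptor that binds TGF-beta, had a narrow interval. It read 4740 and 4570 in mTert, against 4759 and 4991 in control, a difference of -0.07 (SE 0.08) with an interval from -0.26 to 0.13. The other tested probe set of Tgfbr2 stood at -0.045, with groups that overlapped (597 and 638 in mTert, against 718 and 565 in control). A further probe set of Tgfbr2 was called absent on all arrays. Tgfbr1, the type I receptor for TGF-beta, read 1040 and 1026 in mTert, against 1154 and 1037 in control on its brightest probe set, a difference of -0.08 (SE 0.12). The other 2 tested probe sets of Tgfbr1 stood at -0.41 (SE 0.20) and -0.40 (SE 0.22), with both mTert signals below both control signals. The first of these read 155 and 140 in mTert, against 203 and 188 in control, and the second 112 and 101 in mTert, against 144 and 136 in control. The coreceptor Tgfbr3 stood at 0.05 and the activin receptors Acvr1b and Acvr2a at -0.105 and 0.08. Bmpr1a, a BMP type I receptor read by 4 tested probe sets, stood at -0.007, and the 4 ran from -0.079 to 0.095.

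Of the other receptors, 3 passed no filter. Bmpr2, the BMP type II receptor, was called present in control 1 alone, with signals of 169 and 146 in mTert and 213 and 154 in control. Acvr2b, an activin type II receptor, and both probe sets of Eng, a coreceptor typical of endothelium, were called absent on all 4 arrays. No fold is given for these genes.

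Of the 5 Smads, 0 had groups that lay apart on the brightest probe set, where 25.4% of all genes had. Their differences ran between -0.15 and 0.02. Smad4, the partner shared by both branches, read 1849 and 1828 in mTert, against 2246 and 1840 in control, a difference of -0.15 (SE 0.13). The high control 1 alone set it apart, and without that array the difference was -0.002. The other Smad4 probe sets stood at -0.17, with groups that did not overlap, and -0.008. Smad1, a BMP Smad, read 755 and 610 in mTert, against 667 and 796 in control, a difference of -0.10 (SE 0.17). It was 0.025 without control 2 and 0.051 without mTert 2, and its other tested probe set stood at -0.31, with groups apart. Smad3, a TGF-beta Smad, read 431 and 407 in mTert, against 450 and 424 in control, and overlapped with a difference of -0.06 (SE 0.15). Smad2 stood at -0.03. Smad5 stood at 0.02 on a probe set called present on 2 arrays and at 0.11 on another.

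Of the 6 tested inhibitors within the cell or its membrane, 2 corepressors of Smads had both mTert signals below both control signals, and the inhibitory Smads overlapped. Tgif1, a homeodomain protein that recruits histone deacetylases to Smad complexes, read 670 and 698 in mTert, against 871 and 843 in control. The gap between the groups was wider than the spread within either, with means of 684 ± 19.5 in mTert and 857 ± 20.0 in control (SD, n = 2 each). The difference was -0.32 (SE 0.12, 95% interval -0.63 to -0.02), 1.25-fold higher in control, with a limma p of 0.0385 and an adjusted p of 1.00. It lay between -0.35 and -0.30 with any 1 array left out. Tgif1 is read by a single probe set.

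Skil (SnoN), a corepressor that TGF-beta itself induces, read 2243 and 2019 in mTert, against 2507 and 2384 in control. Its groups lay apart with a difference of -0.20 (SE 0.10). The other probe set of Skil stood at -0.37 (SE 0.27), with 122 and 128 in mTert against 199 and 130 in control. There the groups barely separated, and only control 1 stood well apart. Ski, a relative of Skil, stood at -0.02, with 2242 and 1943 in mTert against 2158 and 2081 in control. Bambi, a receptor without kinase activity that blocks signalling, read 450 and 453 in mTert, against 383 and 466 in control, a difference of 0.095 (SE 0.16) that became -0.047 without control 1. The inhibitory Smads, which the pathway induces as feedback, stood at 0.03 for Smad6 and -0.09 for Smad7. Smad6 read 739 and 956 in mTert, against 686 and 992 in control, and so went with the number of the array.

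Secreted antagonists went both ways. Grem1, which binds BMPs outside the cell, had the smallest limma p of the 34 genes. It read 1106 and 1057 in mTert, against 807 and 868 in control, and both mTert signals exceeded both controls by more than the spread within a group. The means were 1082 ± 34.9 in mTert and 837 ± 43.5 in control (SD, n = 2 each). The difference was 0.37 (SE 0.12, 95% interval 0.08 to 0.66), 1.29-fold higher in mTert, with a limma p of 0.0215 and an adjusted p of 1.00. It stayed between 0.32 and 0.42 with any 1 array left out, and Grem1 too is read by a single probe set. Fst, follistatin, which binds activin, read 512 and 318 in mTert, against 503 and 467 in control. Only mTert 2 was low, and the difference of -0.26 (SE 0.24) became 0.080 without it. Fstl1, a secreted glycoprotein of the follistatin family, read 8839 and 8741 in mTert, against 9597 and 9041 in control, a difference of -0.08 (SE 0.07). Its groups lay apart on both probe sets, though the interval from -0.25 to 0.09 crosses 0. On the other probe set they nearly met, with 7547 and 7543 in mTert against 7850 and 7553 in control. Nbl1, a BMP antagonist, stood at -0.10 and was 934 in control 2 but between 673 and 774 on the other arrays.

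Both genes named for their induction by TGF-beta were positive, as were 3875 of all 7387 genes tested. Tgfbi, a secreted matrix protein that binds collagens and integrins, read 2844 and 3017 in mTert, against 2465 and 2656 in control on its brightest probe set, a difference of 0.20 (SE 0.10). Its 4 probe sets ran from 0.19 to 0.30, and for 3 of them both mTert signals lay above both control signals. They read 1 transcript and are not replicates. Tgfb1i1, a focal adhesion protein and nuclear receptor coactivator, read 2227 and 2416 in mTert, against 2441 and 1881 in control. Its groups overlapped, and the difference of 0.11 (SE 0.15) was -0.073 without control 2.

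**Figure D3:**
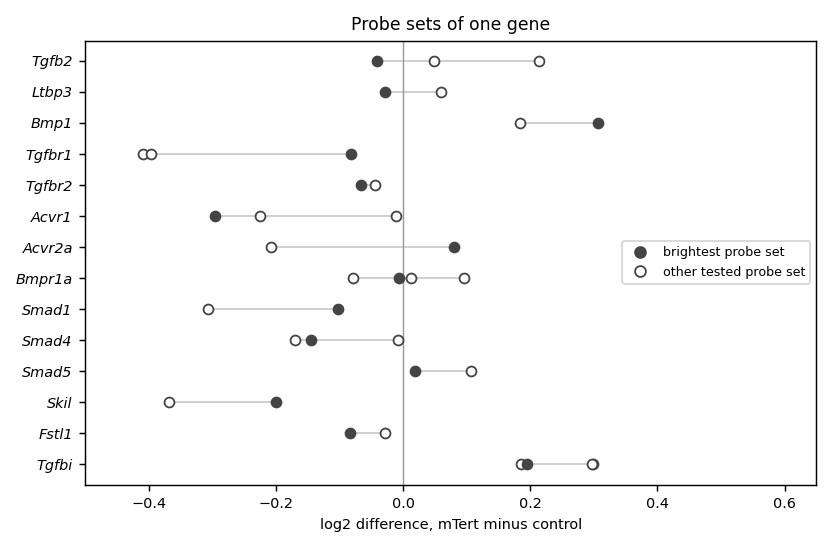
Log2 difference (mTert minus control) of each tested probe set for the 14 members with more than 1. Filled circles are the brightest probe set of a gene and open circles the others, and a line joins the probe sets of a gene. The probe sets of 10 genes lie on 1 side of 0, those of Tgfbi and Bmp1 to the right and those of Tgfbr1, Acvr1 and Skil to the left.

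Where several probe sets of a gene were tested, they gave the same sign for 10 of 14 genes, 3 higher (Bmp1, Smad5 and Tgfbi) and 7 lower (Tgfbr1, Tgfbr2, Acvr1, Smad1, Smad4, Skil and Fstl1). Some of these signs rest on values near 0, as for a probe set of Smad4 (-0.008), Acvr1 (-0.012) and Smad5 (0.018). The same share was not taken over all genes. Tgfb2, Ltbp3, Acvr2a and Bmpr1a had probe sets on both sides. The widest disagreement in size was that of Tgfbr1, between -0.41 and -0.08, followed by that of Acvr2a, between -0.21 and 0.08. Over the 56 tested probe sets of the members, 21 had groups that did not overlap, 8 above and 13 below, or 37.5% against 25.5% of all probe sets. Counted by probe set, genes with several are counted several times.

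The difference between the arrays numbered 2 and those numbered 1 was larger than that between mTert and control for 21 of the 34 members, or 61.8%, against 58.0% of all genes. Both arrays numbered 2 lay above both numbered 1 for 9 members and below for 9, together 52.9%, against 40.3% of all genes and 39.8% of all probe sets. The widest were Tgfb2 at 0.51 and Smad6 at 0.45 on the higher side, and Tgfb3 at -0.51, Inhbb at -0.48 and Fst at -0.40 on the lower side. The labels do not say what the numbers stand for. Grem1 and Tgif1 differed between the numbers by 0.020 and 0.005, and Bmp4 by -0.002.

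**Figure D4:**
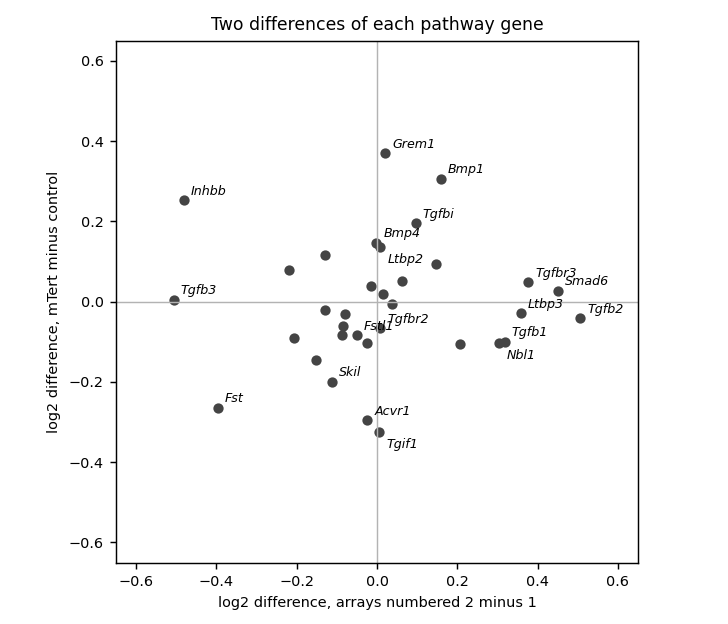
Log2 difference between mTert and control (vertical) against that between the arrays numbered 2 and 1 (horizontal), 1 point for each of the 34 genes. Named are genes with non-overlapping groups or a horizontal value of at least 0.3 in size. Grem1 and Tgif1 lie at the top and bottom near the vertical line, and Tgfb2, Tgfb3 and Smad6 near the horizontal line at the sides.

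Genes that TGF-beta or BMP signals are known to induce or repress were looked at beside the components. The list of 48 was drawn up with earlier results on several of its genes known. Neither its direction nor its shares beside those of all genes are independent evidence. Of the 44 tested, 0 passed the adjusted threshold by limma, and 13 had an unadjusted p under 0.05, 12 lower and 1 higher, or 29.5% against 2.21% of all genes. The groups did not overlap for 17 on the lower side, where 11.7% of all genes did so, and for 4 on the higher side, where 13.8% did. The 21 are 47.7% of the 44, against 25.4% of all genes. The median was -0.047, against -0.025 for the components. Among matrix genes and their crosslinking enzymes, Col1a1 (-0.04), Col3a1 (0.01) and Fn1 (0.01) had groups that overlapped, while Col1a2 (-0.03), Lox (-0.06) and Loxl1 (-0.045) had both mTert signals below both control signals. The groups of Col1a2 nearly met, with 16050 in mTert 1 against 16072 in control 1. Vim, an intermediate filament protein of mesenchymal cells, was likewise lower in both mTert samples, with a difference of -0.17 (SE 0.06). The 1 gene with an unadjusted p under 0.05 on the higher side was Timp1, an inhibitor of matrix metalloproteases, which read 2212 and 2325 in mTert, against 1872 and 1567 in control, a difference of 0.41 (SE 0.12).

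The 4 target genes with the smallest p were transcription factors. Klf10, a zinc finger repressor that TGF-beta induces early, read 910 and 857 in mTert, against 1833 and 1701 in control, a difference of -1.0 (SE 0.12, limma adjusted p = 0.695). Junb, an AP-1 subunit that serum also induces, read 2701 and 3266 in mTert, against 5078 and 5707 in control, a difference of -0.86 (SE 0.12, limma adjusted p = 0.942). Both were lower in each mTert sample than in each control, as were the next 2. Hes1, a basic helix-loop-helix repressor better known as a Notch target, read 3144 and 2840 in mTert, against 4116 and 4002 in control, a difference of -0.44 (SE 0.09, limma adjusted p = 1.00). Hey1, a relative of Hes1 induced by BMP and Notch signals, read 1115 and 880 in mTert, against 1517 and 1524 in control, a difference of -0.62 (SE 0.15, limma adjusted p = 1.00). The Id genes, direct targets of BMP Smads, stood at -0.45 for Id1 and Id2, -0.37 for Id3 and -0.39 for Id4, and the groups of Id4 alone overlapped. Contractile targets overlapped, with Acta2 at 0.07, Tagln at -0.05 and Cnn1 at 0.18, and Ccn2, a classic TGF-beta target, stood at -0.08. Other targets were lower with groups apart: Ccn1 at -0.27, Snai1 at -0.37, Zeb2 at -0.45 and Myc at -0.52. They belong to the 12 lower target genes with an unadjusted p under 0.05 by limma, where 1 was higher.

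**Figure D5:**
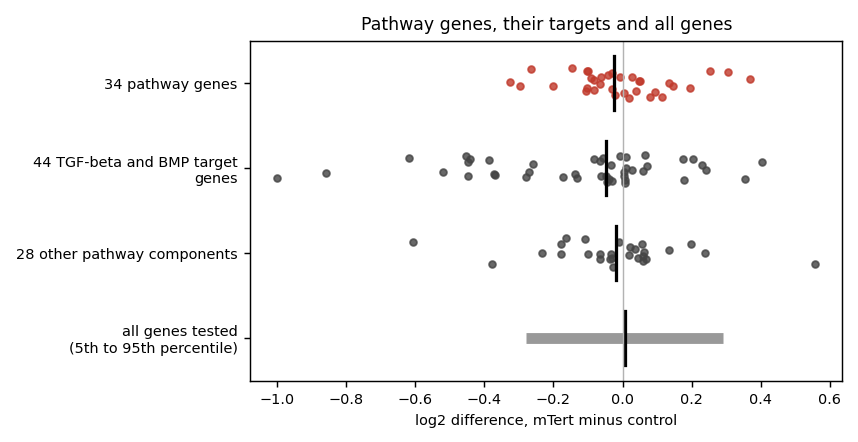
Log2 difference (mTert minus control), 1 point per gene, for the 34 pathway genes, 44 target genes and 28 other pathway components, with each median as a black line. The grey bar spans the 5th to 95th percentile of all genes tested, from -0.28 to 0.29. Target genes spread to -1.0 on the left, while the pathway genes stay between -0.32 and 0.37.

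Further components of the pathway, 65 genes outside the 39, gave 28 tested genes with a median of -0.019. By limma 0 passed the adjusted threshold and 0 had an unadjusted p under 0.05, and the groups lay apart for 4, or 14.3%, against 25.4% of all genes. These 4 were on the lower side, where 11.7% of all genes lay. The 4 genes with the smallest p were Bmp2, a BMP ligand, at -0.61 (SE 0.40), Rnf111, a ubiquitin ligase that removes Ski and Skil, at -0.17 (SE 0.11), Acvr1c, a type I receptor, at 0.56 (SE 0.47) and Wwp1, a ubiquitin ligase, at -0.18 (SE 0.16). Of these, Rnf111 alone had groups apart, with 969 and 996 in mTert against 1096 and 1107 in control. The groups of Bmp2, Acvr1c and Wwp1 overlapped. Bmp2 stood at -0.173 without control 2 and -0.228 without mTert 1, but at -1.04 without control 1 and -0.986 without mTert 2. Wwp1 stood at -0.029 without mTert 1 and -0.327 without mTert 2, and at -0.12 without control 2. Acvr1c stood at -0.065 without control 2. Several ligands and antagonists, among them Bmp7, Nodal, Nog and Fstl3, did not pass the filter on calls.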

How the data were processed

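For every array the authors deposited a linear intensity of each probe set, its call (present, marginal or absent) and the detection p-value behind that call, per the file headers. Which software summarised the probes was not given in the sources used here. Trimmed means (2% off each end) lay between 498.593 and 498.779, so the arrays had been scaled before deposit, and their series-wide table was identical. Instrument records gave the cRNA amounts. Each array was scaled to a common trimmed mean and taken to log2, with the 1 signal at 0 set to the array's lowest present signal. The 64 control probe sets and those present on fewer than 2 arrays were left out, which left 12396. Groups follow the titles. The test was limma 3.58.1 under R 4.3.3 (lmFit and eBayes, prior variance trended on mean signal, no replicate term), with Benjamini-Hochberg adjustment over all probe sets at 0.05. The step was also run on simulated data whose arrays varied independently. That run does not cover the correlation of same-numbered arrays reported at the end. The number of arrays limits the precision.

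Symbols came from the platform annotation: 20380 probe sets had 1, 691 several and 1555 were not listed. The members, roles, lists and rules were chosen with earlier results of these data known. Signals, differences and SEs are given for the 3 members of each role with the smallest limma p, or for both where 2 were tested. Differences and SEs are given for the 4 genes of each other list with the smallest limma p. An unadjusted p is printed for Grem1 and Tgif1 alone. Other genes of those lists were chosen after their values were seen. Promoters came from the RefSeq table of GRCm38.p6, and the 4 shown were also chosen after values were seen. The fold for Tert is from means of log2 values. A floor at each control array's lowest present signal (15.3 and 14.0) lay below the control signals and left the fold unchanged. Alternatives were quantile normalization, other filters, an offset of 32, no trend, a replicate block, the mean of a gene's probe sets, and leaving out each array.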

Additional observations from a re-analysis of the deposited data

How the results depend on the processing

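By limma 0 probe sets passed the adjusted threshold in the fit reported, with 261 at an unadjusted p under 0.05. It was also 0 after quantile normalization, without a filter on calls, on probe sets present on all 4 arrays, with the offset, without the intensity trend and with each array left out (0 to 0), with between 244 and 616 at an unadjusted p under 0.05. The replicate number of the titles, taken as a replicate block, gave 18 calls, 3 higher and 15 lower, of which 0 were members. Klf10 (limma adjusted p = 0.00268), Junb (0.000258) and Tert (9.64e-08) were among them. The correlation between the groups of the deviations of same-numbered arrays was 0.373, and with 2 numbers whose meaning the labels do not give this is no pairing by design. Of the 34 members, 10 had groups that did not overlap, and between 9 and 12 did under the other settings on all 4 arrays. With 1 array left out the count ran from 18 to 25, since a lone array overlaps less easily. The members' median of -0.025 lay between -0.036 and -0.009 under those settings, and between -0.045 and 0.026 with 1 array left out, positive without control 2 (0.024) or mTert 2 (0.026). Of 29 genes named by rule, 0 turned sign on all 4 arrays and 7 did with 1 array left out, over the ranges -0.065 to 1.183 for Acvr1c, -0.047 to 0.237 for Bambi, -0.607 to 0.080 for Fst, -0.002 to 0.506 for Inhbb, -0.255 to 0.051 for Smad1, -0.311 to 0.111 for Tgfb1 and -0.073 to 0.303 for Tgfb1i1. In each such fit the lone array is assumed to vary like the others, and the numbers 1 and 2 are unequal between the groups. The cause was not tested. Genes called absent have no level here.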
